A study of Homo sapiens with 2 samples.

Results

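The regions described here are the PHF8 peaks at gene boundaries on the long arm of chromosome 9 (9q). Their source was ChIP-seq of PHF8 in RKO cells, an established human colon carcinoma line. One library came from cells transfected with vector and the other from cells transfected with an APOC2 overexpression plasmid, and both were precipitated with the same lot of PHF8 antibody. Each condition had 1 library, so no difference has a replicate check and no p-value is given. A peak was a member when it started beyond position 60832661 of chromosome 9 (hg38) and its midpoint was no more than 1 kb from either end of a gene for which RefSeq lists a transcript. By this rule 138 vector and 284 APOC2 peaks were members. They were 422 of the 12943 peaks of both tables, and of the 5931 peaks at gene boundaries on all chromosomes. The arm was chosen by its measured peak numbers and by the high overlap between the libraries that an earlier reading of the same tables had shown on chromosome 9. Both are therefore given as a description.

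PHF8 is an X-linked lysine demethylase of the Jumonji family. Its PHD finger binds the trimethylated histone tail that marks active promoters, and its catalytic domain removes methyl groups that are typical of silent chromatin. APOC2 encodes an apolipoprotein known as the cofactor of lipoprotein lipase. The genes of 9q include the PHF8 relative PHF2, the tumour suppressor TSC1, the repair gene XPA and many housekeeping genes. The tables hold peaks and no expression values, so the identity of the cells was not checked against marker genes.

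The sequences of 7 start sites are examples chosen after their values were seen, and only ORM1 among them had no peak. Each is the RefSeq sequence (GRCh38.p14) of the 250 bases before the annotated start of the gene, 5′ to 3′ on the strand of the gene, with every CpG dinucleotide in capitals. EXOSC2 had the highest fold enrichment of the arm with APOC2, PTPDC1 and XPA were strong shared sites, and DENND1A had the largest ratio between the libraries. PHF2 had nearly equal values in both libraries, SLC2A8 was among the strongest sites seen in the APOC2 library alone, and ORM1, the gene of a liver plasma protein, had no peak.
EXOSC2 (plus strand, chr9:130693510-130693759): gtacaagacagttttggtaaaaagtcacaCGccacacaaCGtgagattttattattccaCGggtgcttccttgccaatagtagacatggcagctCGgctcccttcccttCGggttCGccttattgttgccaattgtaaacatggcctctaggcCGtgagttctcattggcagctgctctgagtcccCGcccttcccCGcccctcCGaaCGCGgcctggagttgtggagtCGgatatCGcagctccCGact
PTPDC1 (plus strand, chr9:94030563-94030812): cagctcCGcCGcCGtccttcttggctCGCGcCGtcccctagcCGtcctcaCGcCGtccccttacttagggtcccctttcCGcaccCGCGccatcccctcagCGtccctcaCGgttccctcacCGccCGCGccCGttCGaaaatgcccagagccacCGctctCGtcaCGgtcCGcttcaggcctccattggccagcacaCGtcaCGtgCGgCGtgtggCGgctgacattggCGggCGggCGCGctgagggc
DENND1A (minus strand, chr9:123930127-123930376): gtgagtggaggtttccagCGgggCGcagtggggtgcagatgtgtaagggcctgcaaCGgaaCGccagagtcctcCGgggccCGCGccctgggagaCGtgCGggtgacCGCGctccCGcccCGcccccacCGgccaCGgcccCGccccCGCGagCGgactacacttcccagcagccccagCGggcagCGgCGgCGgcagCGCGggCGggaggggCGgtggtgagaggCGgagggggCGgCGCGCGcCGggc
XPA (minus strand, chr9:97697341-97697590): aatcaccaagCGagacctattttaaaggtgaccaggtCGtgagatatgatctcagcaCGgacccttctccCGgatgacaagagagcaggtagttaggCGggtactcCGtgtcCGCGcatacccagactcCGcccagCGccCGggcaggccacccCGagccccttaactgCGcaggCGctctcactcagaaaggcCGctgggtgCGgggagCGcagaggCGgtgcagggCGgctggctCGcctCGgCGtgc
PHF2 (plus strand, chr9:93576334-93576583): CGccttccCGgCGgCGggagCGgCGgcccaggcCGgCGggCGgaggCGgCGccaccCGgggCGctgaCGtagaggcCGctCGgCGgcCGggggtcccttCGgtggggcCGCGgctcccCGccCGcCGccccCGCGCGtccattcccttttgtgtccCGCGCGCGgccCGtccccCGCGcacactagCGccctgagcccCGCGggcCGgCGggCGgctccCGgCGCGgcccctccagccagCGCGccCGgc
SLC2A8 (plus strand, chr9:127396919-127397168): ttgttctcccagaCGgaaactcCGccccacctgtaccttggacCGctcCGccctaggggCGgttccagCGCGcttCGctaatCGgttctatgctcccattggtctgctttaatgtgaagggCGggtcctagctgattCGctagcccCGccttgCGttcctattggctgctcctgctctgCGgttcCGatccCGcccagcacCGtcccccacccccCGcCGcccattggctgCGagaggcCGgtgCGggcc
ORM1 (plus strand, chr9:114322848-114323097): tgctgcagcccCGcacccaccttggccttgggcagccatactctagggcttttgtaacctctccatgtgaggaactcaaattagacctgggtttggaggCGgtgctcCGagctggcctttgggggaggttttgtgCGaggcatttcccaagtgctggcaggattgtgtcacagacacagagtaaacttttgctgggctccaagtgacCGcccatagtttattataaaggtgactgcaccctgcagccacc
The windows held 15 CpG at EXOSC2, 32 at PTPDC1, 33 at DENND1A, 22 at XPA, 46 at PHF2 and 22 at SLC2A8, against 5 at ORM1. The APOC2 peaks covered all 250 bases at PTPDC1 and 246 at PHF2. They reached only 74 bases into the window at EXOSC2, 52 at SLC2A8, 35 at DENND1A and 11 at XPA, because most of the peak lay past the start site.

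All 138 vector members were overlapped by at least 1 bp of an APOC2 peak (100%, 95% Wilson interval 97.3 to 100%), beside a background of 97.5% for vector boundary peaks of all chromosomes. In the other direction 132 of 284 APOC2 members (46.5%, 40.8 to 52.3%) were overlapped by a vector peak, beside a background of 22.9%. The other 152 APOC2 members had no counterpart among the called vector peaks. Vector signal at places without a called peak was not available. Here and below, a peak with APOC2 alone therefore means that no vector peak was called, not that PHF8 was absent. The APOC2 table thus held 2.06 times as many members (1.68 to 2.52), while on the chromosomes other than 9 it held 4.44 times as many boundary peaks (4.14 to 4.75). These intervals cover counting error over peaks, which are not replicates.

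The short arm differed from the long arm. On 9p, which was taken up to position 43139881, there were 11 vector and 45 APOC2 peaks at gene boundaries, and 11 of the 45 (24.4%, 14.2 to 38.7%) were overlapped. When peaks below a fold enrichment of 5 were left out, however, the overlap was 33.8% on 9q and 32.1% on 9p. The interval of that difference was wide (-17.8 to 17.4 percentage points). On the other chromosomes the overlap was 19.5% with the limit of 5 and 21.4% without it. Equal numbers of top-ranked peaks gave 61.2% on 9q and 44.4% on 9p, with a difference interval of -6.06 to 37.7 points. A limit on the q-value, which left 280 APOC2 peaks on 9q and 40 on 9p, gave 46.8% and 27.5%. The size of the gap between the arms thus depended on how peaks were selected.

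**Figure D1:**
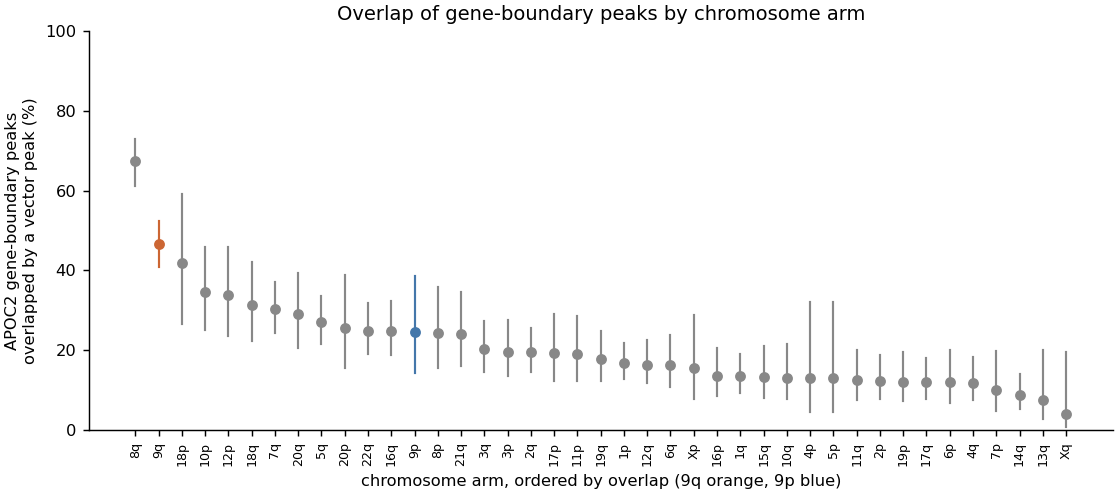
Share of APOC2 gene-boundary peaks overlapped by a vector peak on each of 41 chromosome arms with at least 20 such peaks, in descending order. Points are percentages and lines are 95% Wilson intervals for counting error. 9q (orange, 46.5%) came after 8q (67.3%), and 9p (blue, 24.4%) was the thirteenth.

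Among the 41 arms with at least 20 APOC2 boundary peaks, 9q had the second highest overlap. It followed 8q, where 167 of 248 APOC2 peaks (67.3%, 61.3 to 72.9%) were overlapped. Next in order was 18p with 13 of 31 (41.9%, 26.4 to 59.2%), whose interval includes the value of 9q. Among the 9q peaks away from gene boundaries, all 23 vector peaks were overlapped, and 25 of 61 APOC2 peaks (41.0%) were. Over all chromosomes, 3330 of all 8928 APOC2 peaks and 1095 of the 4779 at gene boundaries were overlapped. There, unlike on 9q, the APOC2 peaks away from boundaries were thus overlapped more often than those at boundaries.

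Counted by gene, 9q was above the background in both libraries and below 8q. Of its 562 protein-coding genes, 157 (27.9%, 24.4 to 31.8%) had a boundary peak in the vector library and 274 (48.8%, 44.6 to 52.9%) in the APOC2 library. The backgrounds over the coding genes of all chromosomes were 5.95% and 23.8%. On 8q, 40.2% of 423 coding genes had a vector and 52.7% an APOC2 peak. On 9p the shares were 3.24% in the vector library and 15.7% in the APOC2 library. With the limit of 5 on fold enrichment, 15.5% of the 9q coding genes had a vector peak and 40.2% an APOC2 peak, beside 2.86% and 13.4% on the other chromosomes. Noncoding genes carried fewer peaks: 30 of 603 lncRNA genes of 9q (4.98%) had one with vector and 55 (9.12%) with APOC2, against 1.63% and 6.37% over all chromosomes. With APOC2, 5 of 66 miRNA genes (7.58%) had one, against 3.66% over all chromosomes.

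Over all 1303 genes of the arm with a transcript, 191 (14.7%) had a boundary peak in both libraries, 149 (11.4%) with APOC2 alone, 4 (0.307%) with vector alone and 959 (73.6%) had none. Among all genes of all chromosomes, 3.65% had a boundary peak in the vector library, 14.4% with APOC2 and 3.55% in both. The 4 were PCSK5, a proprotein convertase, MRPS2, a mitochondrial ribosomal protein, its neighbour PIERCE1, and LOC107987132. The vector peaks behind them were overlapped by APOC2 peaks too, whose midpoints lay farther from the gene end. At MRPS2, for example, the APOC2 peak had a fold enrichment of 7.62 and its midpoint was 1012 bp from the boundary.

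Peaks lay close to the limit of 1 kb on both sides. The members nearest to it lay at GARNL3 (982.5 bp, APOC2 fold enrichment 6.0), PCSK5 (963.5 bp, vector 6.44), FAM27E4 (949 bp, APOC2 4.29) and MRPS2 (898.5 bp, vector 5.63). The summits at PCSK5, FAM27E4 and MRPS2 nevertheless lay 125, 122 and 54 bp past a listed start site. The GARNL3 member had no start site within 1 kb. The distances here are to gene ends. Just outside the limit were APOC2 peaks at 1012 bp and 1083.5 bp, with fold enrichments of 7.62 and 9.25, and vector peaks at 1165 bp and 1190.5 bp, with 5.75 and 6.50.

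The strength of the members was compared next. Pileup is the number of fragments stacked at the summit, and fold enrichment is the pileup plus 1 divided by the local background plus 1. The vector members had a median fold enrichment of 5.25 (range 2.60 to 14.8) and the APOC2 members 6.34 (range 2.57 to 21.7). On the other chromosomes these medians were 5.11 and 5.23. Vector members had a median pileup of 36.1 and APOC2 members one of 36, against 28.7 and 27 on the other chromosomes. Local background was higher on 9q as well, with medians of 6.0 (5.60 to 6.27) for vector and 4.99 (4.72 to 4.99) for APOC2 members, against 4.93 (4.48 to 5.00) and 4.17 (4.16 to 4.36) on the other chromosomes. On 9p the medians were 3.0 and 4.16. These pileups and backgrounds are in the units of each table and are compared only within a table. Where the libraries are set side by side below, scaled values are used: APOC2 values divided by 0.832, the depth of that library relative to its control, and vector values as deposited. Such a comparison assumes that the controls of both libraries had the same depth, which was not given. Among the 41 arms, 9q ranked second in median pileup in both libraries, and seventh (vector) and twelfth (APOC2) in median background. The part of the background in the overlap was not tested.

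Enrichment was paired at 132 places, where an APOC2 member and its vector partner overlapped most. All 132 partners were members too, 2 further vector members were paired with APOC2 peaks beyond the limit, and 4 were second vector peaks under an APOC2 peak that already had a partner. On the log2 scale the median pair had a ratio (APOC2 to vector, by fold enrichment) of 0.60 (95% order-statistic interval 0.47 to 0.66). The ratio was above 0 at 126 of 132 pairs (95.5%), beside a background of 89.2% over the boundary pairs of all chromosomes. It was at least 1.5-fold at 67 pairs (50.8%), beside a background of 42.2%, and no pair was 1.5-fold lower. Pileup scaled to the control depth gave a median of 0.59 (0.53 to 0.67), with 128 pairs above 0, beside a background of 92.4%. Over the other chromosomes the median log2 ratio of fold enrichment was 0.50 (0.46 to 0.53), and over the 11 pairs of 9p it was 0.50 (-0.083 to 0.74). The interval of 9q therefore overlapped those of both. The local background at the paired summits, also scaled, had a median log2 ratio of -0.00 on 9q. The APOC2 peaks were also longer than their partners, with a median log2 length ratio of 0.49 (0.39 to 0.65).

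**Figure D2:**
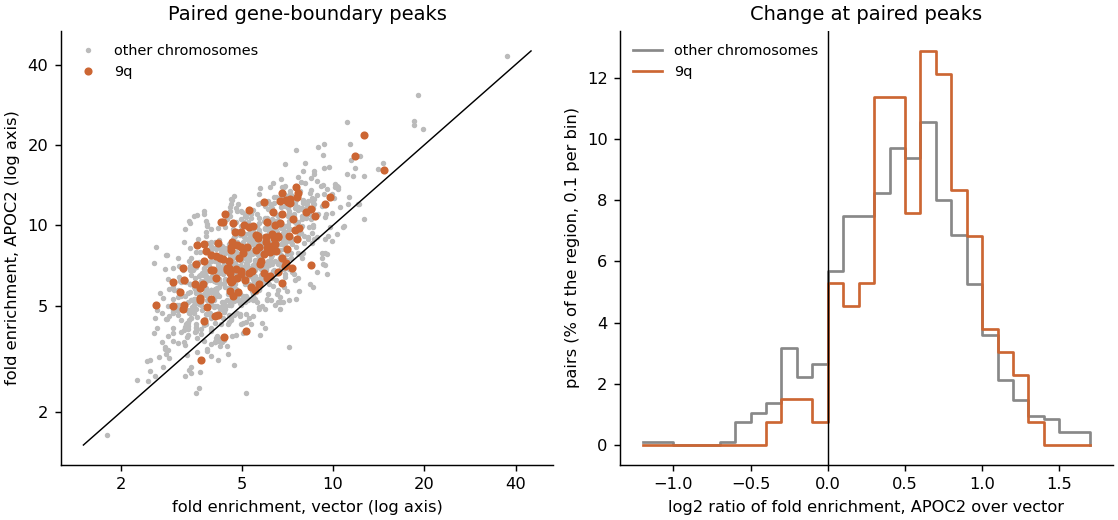
Left, fold enrichment of paired gene-boundary peaks in the vector (x) and APOC2 (y) library on log axes, with the line of equality; right, the log2 ratio of each pair as a share of all pairs of the region, in bins of 0.1. On 9q (orange) 126 of 132 pairs lay above the line, and the 9q values lay within the range of the other chromosomes (grey).

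The strongest pair by APOC2 enrichment was at EXOSC2, a cap subunit of the RNA exosome. Scaled pileup was 51.5 with vector and 86.5 with APOC2, and fold enrichment was 12.7 and 21.7 (log2 ratio 0.78). The APOC2 peak there ran from 130693686 to 130694313 and its summit lay 136 bp past the start site. At AIF1L, an actin-binding protein gene, fold enrichment was 11.8 and 18.1 (log2 ratio 0.61). GLE1, a factor of mRNA export, had the highest vector value of the arm, 14.8, and 16.1 with APOC2 (log2 ratio 0.13). GLE1 thus ranked above EXOSC2 with vector and below it with APOC2.

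The next pairs in order of APOC2 enrichment were PTPDC1, a phosphatase gene, with 7.56 and 14, and the shared boundary of DNLZ and CARD9, with 6.79 and 13.2. CARD9 encodes an adaptor of innate immunity, and both peaks of this pair lay outside the gene itself. The boundary of NDUFA8, a subunit of respiratory complex I, and MORN5 had 7.67 and 13.2. RC3H2, which encodes an RNA-binding ubiquitin ligase, had 9.73 and 12.8, and the zinc finger gene ZNF658 had 7.59 and 12.8. The APOC2 value was the higher one in all 8 of these pairs, which were picked by that value. Among all 9q pairs this held for 95.5%.

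The largest ratios were at DENND1A, an activator of the small GTPase RAB35, from 123929829 to 123930161, where fold enrichment was 4.40 with vector and 11.0 with APOC2 (log2 ratio 1.32). At DNAJC25, a J-domain cochaperone gene, it was 4.26 and 10.3 (log2 ratio 1.27). At CTNNAL1, a relative of alpha-catenin, it was 4.33 and 10.2 (log2 ratio 1.24). At GOLM1, a Golgi membrane protein gene, it was 3.56 and 8.40 (log2 ratio 1.24). These ratios were smaller when pileup scaled to the control depth was compared: 0.90, 0.78, 0.89 and 0.61. The scaled local background at these 4 summits was 8.0, 12.0, 7.0 and 9.0 with vector, and 5.45, 8.0, 5.01 and 5.23 with APOC2. Other large ratios changed little with that measure. They included the boundary of ENTR1 and PMPCA, the latter a subunit of the mitochondrial processing peptidase (1.12 by fold enrichment and 1.19 by scaled pileup), the uridine kinase gene UCK1 (1.12 and 1.17), and HSDL2-AS1 with KIAA1958 (1.12 and 1.03).

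At 6 pairs the fold enrichment was lower with APOC2. NRARP, a gene of the Notch pathway, had scaled pileups of 29.7 and 22.8 and fold enrichments of 5.18 with vector and 4.01 with APOC2 (log2 ratio -0.37), with a scaled pileup ratio of -0.38. A second APOC2 member at NRARP, with 5.90, had no vector partner. ZBTB6, a zinc finger gene, had 8.48 and 7.11 (-0.26), but its scaled pileup ratio was 0.14. Of the 2 pairs at FAM120A, an RNA-binding protein gene, one had -0.23 by fold enrichment and 0.16 by scaled pileup, and the other -0.16 and -0.077. CIZ1 with DNM1 had -0.19 and -0.077, and HDHD3 had -0.080 and -0.032. The direction at ZBTB6 and at the first FAM120A pair therefore depended on the measure.

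The 152 APOC2 members without a vector counterpart had a median fold enrichment of 5.38 (4.92 to 5.67), against 7.86 (7.18 to 8.31) for the overlapped ones, a ratio of 0.685. On the other chromosomes this ratio was 0.687. Their median pileup was 29 against 46, and their median length 310 against 503 bp. The strongest was at ZMYND19, from 137590212 to 137590486, with a fold enrichment of 11.7 and a pileup of 53. SLC2A8, a glucose transporter gene, had 11.6 with a pileup of 36, and SLC2A6, of the same family, had 8.22 with a pileup of 43. DAPK1, a death-associated kinase gene, had 10.3, C9orf40 9.99 and CORO2A, a coronin gene, 8.70. SPIN1, a reader of histone methylation, had 9.17, and the boundary of ANAPC2, a subunit of the anaphase-promoting complex, and SSNA1 had 8.35. These 8 values, picked as the highest of the 152, all lay above the median of the overlapped APOC2 members. No vector peak overlapped these 8 peaks. At ZMYND19 a neighbouring APOC2 member, with 12.3, did have a vector partner, with 6.69.

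The longest APOC2 member, 2016 bp, was at VAV2, a guanine exchange factor gene, with a fold enrichment of 9.47. Under it lay 2 separate vector members, with 4.95 and 4.33. The next longest were at SEC16A (1332 bp), a gene of endoplasmic reticulum exit sites, at HSDL2-AS1 with KIAA1958 (1228 bp), at NPDC1 (1171 bp) and at LOC124902287 (1134 bp). At 4 places on the arm, VAV2 among them, 1 APOC2 member spanned 2 vector peaks.

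The members were not spread evenly along the arm. In 10 Mb windows counted from the first gene of the arm, the last 2 windows, with 285 of the 562 coding genes, held 95 of the 138 vector and 159 of the 284 APOC2 members. There 90 of 159 APOC2 members (56.6%, 48.8 to 64.1%) were overlapped, against 42 of 125 (33.6%, 25.9 to 42.3%) in the first 6 windows. The median pileup of APOC2 members was 41 (38 to 45) in the last 2 windows and 29 (28 to 32) in the first 6. Their median background was 5.08 (4.99 to 5.83) and 4.36 (4.16 to 4.99), respectively. For vector members the pileups were 37.6 (33.6 to 40.6) and 33.6 (25.7 to 36.6), and the backgrounds 6.27 (6.0 to 7.0) and 5.0 (4.0 to 6.0). The part of the background in this difference was not tested. The first 3 windows held few APOC2 members (6, 11 and 16), and their overlaps of 33.3%, 18.2% and 25% had wide intervals. The median log2 ratio of fold enrichment was 0.45 in the seventh and 0.64 in the eighth window.

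**Figure D3:**
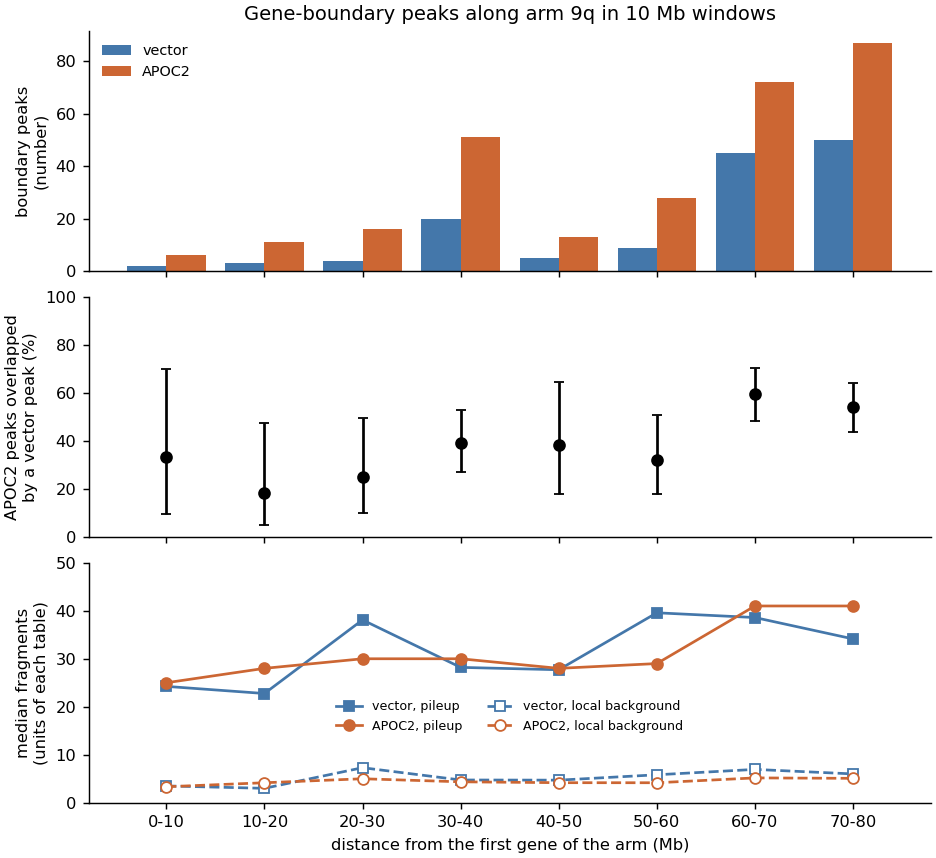
Gene-boundary peaks of 9q in 10 Mb windows by distance from the first gene of the arm. Top, peak numbers in the vector (blue) and APOC2 (orange) library; middle, share of APOC2 peaks overlapped by a vector peak with 95% Wilson intervals; bottom, median pileup (solid) and median local background (dashed) in the units of each table. The last 2 windows held the most peaks and had overlaps of 59.7% and 54.0%.

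The densest 1 Mb, from 136686952 to 137618862 near the end of the arm, held 45 APOC2 members, of which 23 were overlapped, and 23 vector members. Its boundaries included those of TUBB4B, a beta-tubulin gene, EDF1, a transcriptional coactivator gene, NELFB, a subunit of the negative elongation factor, MAN1B1, MRPL41 and EHMT1. At the other extreme, no vector member lay between 75890902 and 85805393, and no APOC2 member between 78236370 and 83623006.

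Most members were at the start of a gene. A start site of the RefSeq promoter table lay within 1 kb of the midpoint of 125 vector members (90.6%) and 251 APOC2 members (88.4%). On the other chromosomes the shares were 68.4% and 79.0%. The summits sat past the start site. Their median offset from the nearest start was 148 bp downstream for vector (quartiles 98 and 174) and 130 bp for APOC2 (quartiles 71.5 and 174.5). Between 50 and 200 bp downstream lay 89 of the 125 vector summits (71.2%) and 156 of the 251 APOC2 summits (62.2%), beside 61.8% and 60.9% on the other chromosomes. The overlapped APOC2 members had 86 of 119 summits (72.3%) in that stretch, and those without a counterpart 70 of 132 (53.0%).

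**Figure D4:**
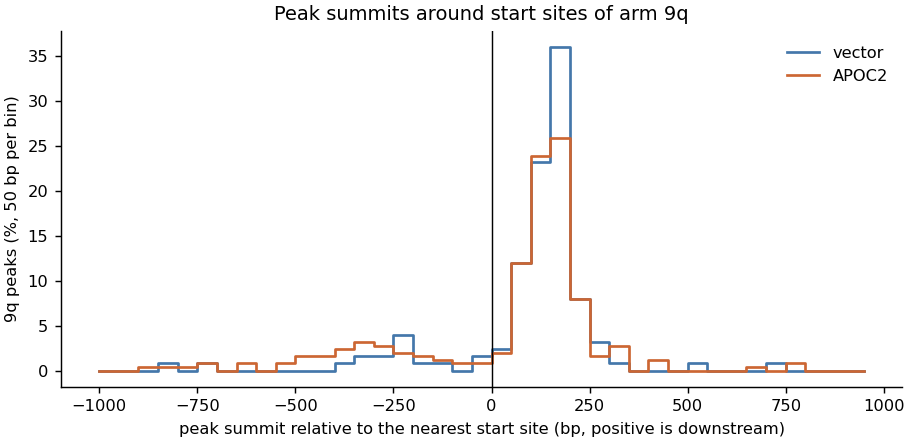
Position of peak summits relative to the nearest RefSeq start site (x, bp, positive downstream) for the 9q members with a start site within 1 kb, as a percentage of each library in bins of 50 bp. Both the 125 vector (blue) and 251 APOC2 (orange) summits were concentrated past the start, with medians of 148 and 130 bp, and a lower group lay upstream.

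Boundaries shared by several genes were common, as 116 of the 284 APOC2 members (40.8%) touched at least 2 genes. Of these 61 (52.6%, 43.6 to 61.4%) were overlapped by a vector peak, against 71 of 168 (42.3%, 35.0 to 49.8%) at boundaries of 1 gene. Where at least 2 coding genes met, 34 of 58 (58.6%, 45.8 to 70.4%) were. The intervals of these classes overlap one another.

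The genes of the arm were then taken by function, from lists written from general knowledge. For comparison, of the 562 coding genes of 9q, 27.4% had a boundary peak in both libraries, 21.4% with APOC2 alone, 0.534% with vector alone and 50.7% had none. Over the coding genes of all chromosomes, 5.84% had a peak in both. A gene could stand on more than 1 list. Genes that meet at 1 boundary share its peaks, so the same pair can count more than once, as at SURF1 and SURF2. Ratios are those of overlapping peaks, taking for each gene the pair with the highest APOC2 value. Over all 132 pairs of 9q, 95.5% were higher with APOC2 and 50.8% by 1.5-fold or more, with a median log2 ratio of 0.60. The counts in the lists are to be read beside these shares. No list was tested.

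Of 17 listed genes of translation and RNA maturation on 9q, 12 had a peak in both libraries, 2 with APOC2 alone, 1 with vector alone (MRPS2) and 2 in neither. In all 12 the APOC2 value was higher, in 4 of them by 1.5-fold or more, and the median log2 ratio was 0.38. Besides EXOSC2 and GLE1, DPH7, which acts in the modification of elongation factor 2, had fold enrichments of 8.69 and 10.8, and URM1, a ubiquitin-like protein of tRNA modification, had 7.16 and 9.14.

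Of 20 genes of protein folding, degradation and traffic, 14 had a peak in both libraries, 2 with APOC2 alone and 4 in neither. All 14 were higher with APOC2, 7 of them by 1.5-fold or more, with a median log2 ratio of 0.60. FBXW2, an F-box protein gene, had 6.76 and 11.0, UBAC1, a gene of the ubiquitin pathway, 5.08 and 10.0, and FBXW5 5.28 and 9.81. DNAJC25, given above, was also among the 4 highest. TOR1A, PSMB7, UBQLN1 and SURF4 had no peak.

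Of 24 genes of mitochondria and metabolism, 11 had a peak in both libraries, 3 with APOC2 alone, 1 with vector alone (PCSK5) and 9 in neither. All 11 were higher with APOC2, 7 by 1.5-fold or more, with a median log2 ratio of 0.61. SURF1, an assembly factor of cytochrome oxidase, and SURF2 meet at 1 boundary, whose scaled pileup was 42.6 with vector and 86.5 with APOC2 and whose fold enrichment was 7.08 and 12.2. UGCG, which makes glucosylceramide, had 8.12 and 11.2. The remaining leaders, NDUFA8 and PMPCA, are given above.

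Chromatin and transcription genes were close to the shares of all 9q coding genes given above. Of 34 listed, 10 had a peak in both libraries, 7 in the APOC2 library alone and 17 in neither. Of the 10, 9 were higher with APOC2, 5 by 1.5-fold or more, and the median log2 ratio was 0.57. Comparing the strongest peak of each library, whether or not those peaks overlapped, gave 4 and 0.33 in this list. MED27, a Mediator subunit, had 6.70 and 10.2, the zinc finger gene ZNF79 3.96 and 7.77, and GTF3C5, a subunit of transcription factor IIIC, 4.53 and 7.34. GTF3C5 had a second pair, with 5.94 and 6.65. ZBTB6 was the exception given above. PHF2, a demethylase of the same family as PHF8, had scaled pileups of 27.7 and 30.03 (log2 ratio 0.12) and fold enrichments of 6.58 and 6.66 (log2 ratio 0.017). EHMT1, a methyltransferase for the opposite reaction, had 2.97 and 4.98 (log2 ratio 0.75). The acetyl-lysine reader BRD3 had 6.52 in the APOC2 library alone.

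Of 25 tumour suppressor and signalling genes, 7 had a peak in both libraries, 5 in the APOC2 library alone and 13 in neither. All 7 were higher with APOC2, 5 by 1.5-fold or more, with a median log2 ratio of 0.74. TSC1, a brake on mTOR signalling, had scaled pileups of 32.7 and 60.1 and fold enrichments of 7.0 and 12.5 at a boundary that it shares with GFI1B. NOTCH1 had 4.63 and 6.27, and ABL1 had 5.95 in the APOC2 library alone. PTCH1, TGFBR1, SYK and TRAF2 had no peak. CARD9, DAPK1 and VAV2 led the list with TSC1. The CARD9 value is that of the boundary peak with DNLZ, which lay outside CARD9 itself (136363956 to 136373669). Its summit was 151 bp past a start site that is not an end of CARD9.

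Of 14 genes of DNA repair and chromosome structure, 4 had a peak in both libraries, 5 in the APOC2 library alone and 5 in neither. XPA, the damage-verification factor of nucleotide excision repair, had scaled pileups of 38.6 and 68.5 and fold enrichments of 7.22 and 12.5. ENDOG, a mitochondrial nuclease gene, had 6.31 and 8.39, and SMC5, of a chromosome maintenance complex, 4.62 and 8.08. POLE3, a subunit of DNA polymerase epsilon, had 7.97 in the APOC2 library alone. All 4 shared genes were higher with APOC2, with a median log2 ratio of 0.60.

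As a contrast, 27 genes chosen for low expected signal in colon cells were listed, such as odorant receptors, lipocalins, orosomucoids and neuronal channels. Of these, 25 had no peak, among them ORM1, DBH, LMX1B and OR1J1, beside 50.7% of all 9q coding genes. Because the list was chosen for low signal, with earlier results of these data known, its lack of peaks is only a description. PCSK5 had a vector peak of 6.44 at its 1 kb limit, and GRIN1, which meets LRRC26 at its boundary, had 4.78 and 6.86.

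Coding genes with a peak had more CpG at their start than those without, with wide overlap between the classes. RefSeq promoter windows, from 250 bases before to 50 after the start, were matched for 888 of the 1303 genes and for 488 of the 562 coding genes. In coding genes with a peak in both libraries the window held a median of 35 CpG (quartiles 25 and 40, 138 genes), with a peak in the APOC2 library alone 30 (quartiles 24 and 37, 97 genes), and with a peak in neither 13.5 (quartiles 5 and 29, 250 genes). Over all chromosomes these medians were 30, 29 and 18. A window with at least 10 CpG was present in 95.7% of the shared genes, in 96.9% of those with APOC2 alone and in 58.4% of those with neither.

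**Figure D5:**
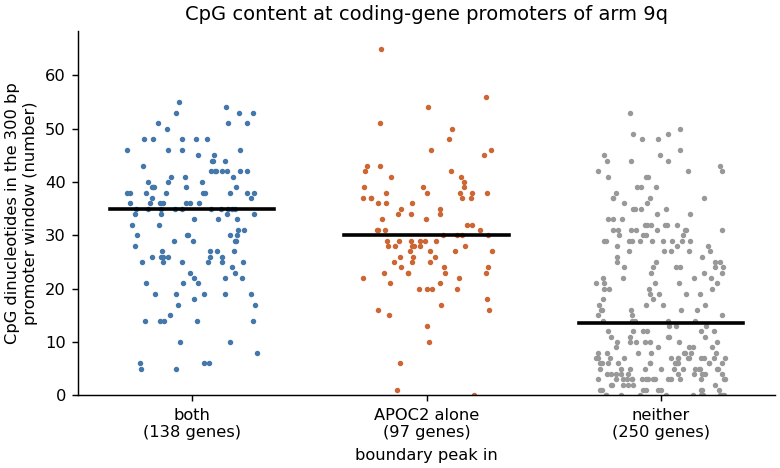
Number of CpG dinucleotides in the 300 bp promoter window (y) of each coding gene of 9q, by the library in which its boundary had a peak (x); points are genes, spread sideways at random, and lines are medians. The medians were 35 (both), 30 (APOC2 alone) and 13.5 (neither); the 3 matched genes with a vector peak alone are left out.

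Short motifs were counted on both strands of the same windows, without regard to overlaps between them. GGGCGG, the letters of a GC box, was in 80.4% of the shared coding genes, 79.4% of those with APOC2 alone and 50.4% of those with neither, beside 58.3% of all coding promoters. CCGGAA, the core of an ETS site, was in 34.1%, 29.9% and 11.2%, beside 22.7%. TATAAA ran the other way, with 2.90%, 5.15% and 12.8%, beside 9.75%. CACGTG (11.6%, 9.28% and 8.40%, beside 8.83%), CGCATGC (6.52%, 5.15% and 3.20%, beside 5.16%) and CCAAT (30.4%, 38.1% and 29.6%, beside 36.4%) varied less. Of the sequences shown, all 7 held GGGCGG, EXOSC2, PTPDC1 and SLC2A8 held CCAAT, PTPDC1 held CACGTG, and ORM1 was the one with TATAAA. A match is a description of the letters, not a binding site.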

How the data were processed

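Per the submitters' processing notes, Bowtie2 2.2.9, MACS2 2.0 and HOMER were used with hg38; the control library, the thresholds and the handling of duplicates were not given in the sources used here. Each library had 1 deposited peak table. Per the file headers, it gave the pileup signal at the summit and the fold enrichment. A pair of deposited columns without a readable name was taken, from place and values, as -log10 of the p-value and of the q-value. Read totals were not given. The steps of the deposited pileups put the vector library at 1.01 times the depth of its control, and those of the APOC2 backgrounds put that library at 0.832 times. The latter step fitted 63.9% of the APOC2 backgrounds examined. APOC2 pileups divided by 0.832 gave the scaled pileup. Whether both libraries had the same control was not given. The scaled backgrounds at the 9q pairs had a median log2 ratio of -0.00025 (quartiles -0.12 and 0.011). A shared control was not tested, so the relative depth of the libraries is an assumption. Local background was computed from pileup and fold enrichment.

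Gene ends came from RefSeq GRCh38.p14, and start sites from its promoter windows. The arms were split at the longest gene-free stretch of each chromosome. Overlap needed 1 bp, and pairs were taken by longest overlap. Python 3.11.15 was used, overlap counts equalled those of bedtools 2.31.1, and the code was tested on simulated data. Named peaks were the 8 strongest pairs, the 8 highest (1 of them not reported here) and 6 lowest ratios, the 8 strongest APOC2 peaks without a partner, the 5 longest, and up to 4 members of each list by APOC2 enrichment; other names (PHF2, EHMT1, BRD3, NOTCH1, ABL1, genes without peaks and examples in the densest stretch) were chosen after their values were seen, as were the sequences printed. Of 159 listed genes, 154 were on 9q. Members and lists were chosen with earlier results of these data known. Alternatives are in the closing section. Wilson and order-statistic intervals (95%) cover counting error only, and fragments lacking molecular identifiers need not be independent molecules.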

Additional observations from a re-analysis of the deposited data

How the results depend on the processing

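Of 95 recomputed values, 72 stayed within the interval of the reported value (or, for gene numbers, within 1.5 times), 23 moved and none reversed. The 72 include values that could not move. The settings for 50% overlap and for gaps up to 1 kb change only the overlap rule, so the ratio of member numbers and the gene numbers were fixed there. Scaling pileup to the control depth divides all APOC2 values by 1 constant, so its relative enrichment (0.630) repeats that of raw pileup. A limit of 0.001 on q left 280 of 284 APOC2 and 137 of 138 vector members. The restriction to protein-coding genes left 268 and 130. Each of these settings changed few members and moved none of 9 values. Leaving out peaks below a fold enrichment of 5, the ratio of member numbers was 2.84, the overlap of APOC2 members 33.8%, the median log2 ratio 0.45, the genes with peaks in both libraries 102, and the gap between 9q and 9p 1.67 percentage points in place of 22.0. Taking as many top-ranked APOC2 as vector peaks gave a ratio of member numbers of 1.51, overlaps of 96.4% (vector) and 61.2% (APOC2), and put the relative enrichment of APOC2 members without a counterpart at 0.803 and the genes with APOC2 or vector peaks alone at 90 and 7. Requiring 50% of both peaks to overlap gave 71.7% and 34.5%. Counting gaps up to 1 kb as overlap gave 54.6% of APOC2 members, and merging peaks within 1 kb 53.9%. A 3 kb window left 0 genes with a vector peak alone. With direct overlap of peak and gene end, the ratio of member numbers was 3.20, the APOC2 overlap 63.1%, the relative enrichment 0.820 and the genes in both 47. The median log2 ratio was 0.33 with raw pileup, which is not scaled for depth, and 0.80 with -log10 p, which put the relative enrichment at 0.487. Limiting boundaries to start sites, chosen after seeing the data, moved none of 6. The cause of these moves was not tested. The interval of the gap between the arms included 0 in 3 settings: the limit of 5 on fold enrichment (-17.8 to 17.4 points), top-ranked peaks (-6.06 to 37.7) and direct overlap (-12.3 to 33.4). No paired analysis was possible because each condition had 1 library, and no library could be left out.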
